A study of Arabidopsis thaliana with 2 samples.

Results

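Central cells of *Arabidopsis thaliana*, the female gametes that give rise to the endosperm, were examined for 10 genes of the RALF family of signalling peptides: RALF1 (AT1G02900), RALFL4 (AT1G28270), RALFL8 (AT1G61563), RALFL18 (AT2G33130), RALFL19 (AT2G33775), RALFL22 (AT3G05490), RALFL23 (AT3G16570), RALFL27 (AT3G29780), RALFL33 (AT4G15800) and RALFL34 (AT5G67070). They were chosen by locus name, with earlier results of these data known. They are 10 of the 34 genes with a RALF name in the RefSeq gene table. The files list 17419 loci in at least 1 replicate. The data comprise 1 condition, wild-type central cells of the accession Landsberg *erecta* cut by laser from the mature embryo sacs of emasculated, unpollinated flowers. There are 2 biological replicates, CC1 and CC2, each a pool of about 450 cells whose poly(A) RNA was amplified before sequencing. The values are hits, that is, weighted read alignments summed over the transcripts of a locus, and the listed loci held 15257122 hits in CC1 and 14857500 in CC2.

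RALF peptides are small secreted proteins named for the rapid rise in the pH of the medium that they cause. They bind receptor kinases of the CrRLK1L family, such as FERONIA, together with small membrane-anchored co-receptors of the LORELEI family and with leucine-rich repeat extensins (LRX) of the cell wall. In reproduction, RALFL4 and RALFL19 are made by the pollen tube and keep it from bursting, while RALFL34 is made in female tissue and can bind the same receptors. RALF1, RALFL22, RALFL23 and RALFL33 are known from roots, leaves and stigmas, and RALFL8 from pollen.

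Of the 10 genes, 6 were listed in both replicates and 4 in neither, so that no gene was listed in 1 replicate alone. The genes listed were RALFL4, RALFL8, RALFL18, RALFL23, RALFL33 and RALFL34. RALF1, RALFL19, RALFL22 and RALFL27 were not listed. As a background, 60.5% of the nuclear protein-coding loci of the assembly TAIR10.1 were listed in at least 1 replicate and 47.2% in both, so that the share of the RALF genes lay near that of all loci. A locus is listed only with at least 5 hits and a hit within the last 250 bp of a transcript, so that the unlisted genes were not measured as 0. A value of 5 hits corresponds to 0.328 hits per 1000000 listed hits (HPM) in CC1 and to 0.337 in CC2.

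RALFL18 held most of the hits of the group, and its coding sequence stands apart from those of the other members. The last 150 bases of the coding sequence, which end with the stop codon, are shown for the 3 most abundant members, for RALFL8 and for the related RALFL14, to compare where the cysteine codons (TGT or TGC, in capitals) fall. The sequences are from the RefSeq genome of TAIR10.1 (accession Columbia) and are written 5′ to 3′ on the coding strand.
RALFL18 (chr2:14046521-14046670, minus strand): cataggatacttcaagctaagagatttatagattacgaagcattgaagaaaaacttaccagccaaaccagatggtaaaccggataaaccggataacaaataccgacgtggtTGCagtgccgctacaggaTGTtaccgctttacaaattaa
RALFL14 (chr2:8909623-8909772, plus strand): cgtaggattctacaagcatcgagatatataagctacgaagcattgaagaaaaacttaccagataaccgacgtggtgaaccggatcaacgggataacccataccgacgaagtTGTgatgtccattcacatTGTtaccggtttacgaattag
RALFL34 (chr5:26768360-26768509, plus strand): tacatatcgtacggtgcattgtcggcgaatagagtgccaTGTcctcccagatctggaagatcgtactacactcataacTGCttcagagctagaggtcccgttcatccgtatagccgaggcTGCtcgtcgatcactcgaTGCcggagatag
RALFL33 (chr4:8985116-8985265, plus strand): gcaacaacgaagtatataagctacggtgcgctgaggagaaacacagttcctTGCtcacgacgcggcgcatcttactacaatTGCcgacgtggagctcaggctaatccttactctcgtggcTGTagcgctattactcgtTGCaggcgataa
RALFL8 (chr1:22715081-22715230, minus strand): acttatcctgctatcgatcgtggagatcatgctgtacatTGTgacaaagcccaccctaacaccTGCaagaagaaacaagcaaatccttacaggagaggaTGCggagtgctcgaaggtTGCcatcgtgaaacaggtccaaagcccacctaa
Mature RALF peptides commonly hold 4 cysteines that pair into bridges. Within these 50 codons, 9 of the 10 members had 4 cysteine codons and RALFL18 had 2. Of the 34 RALF genes, 26 had 4 cysteine codons there, and RALFL14, RALFL17, RALFL18 and RALFL21 had 2. RALFL18 and RALFL14 both kept the last pair, 6 codons apart, and each had 4 cysteine codons in its whole coding sequence. Every one of the 10 members has a single exon, as do all 34 RALF genes in this annotation. The coding sequences of the members ran from 249 bases (RALFL8) to 417 bases (RALFL23).

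RALFL18 had 1757 hits in CC1 (exact Poisson interval of 95%, 1676 to 1841) and 1296 in CC2 (1226 to 1369). Per 1000000 listed hits, its level was 115 HPM in CC1 and 87.2 HPM in CC2, with a mean of 101 ± 19.8 HPM (SD, n = 2). The gene lies on chromosome 2 from 14046388 to 14047063 on the minus strand, with a transcript of 676 bp. In CC1 it stood above 90.0% of the listed loci and in CC2 above 88.8%. It made up 66.6% of the hits of the 10 genes in CC1 and 69.8% in CC2, and was the most abundant of them in both replicates. The intervals cover counting error only, and amplified reads are not independent molecules. Part of the hits of RALFL18 in CC2 had been shared out between loci: its value of 1295.74 and that of RALFL14 (202.262) were fractional and added up to 1498 to the nearest hit. In CC1 both values were whole, with 146 hits on RALFL14. The coding sequences of both were 69.4% identical, the closest match of either within the family, but no 50-base stretch of their transcripts was the same.

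The peptide genes RALFL34 and RALFL33 held intermediate values. RALFL34, a ligand of the receptor THESEUS1 in roots, had 590 hits in CC1 (543 to 640) and 263 in CC2 (232 to 297). This was 38.7 HPM in CC1 and 17.7 HPM in CC2, with a mean of 28.2 ± 14.8 HPM (SD, n = 2). RALFL34 thus lay 2.18-fold higher in CC1, and it was the only one of the 6 listed members whose replicates were more than 2-fold apart. Over all loci listed in both replicates, 30.2% were more than 2-fold apart in either direction and 15.5% were more than 2-fold higher in CC1, and the count for the members is not set apart from this. The median locus of its abundance class (loci listed in both replicates, split into 5 classes of equal size) differed 1.55-fold. RALFL33, which acts through FERONIA, had 221 hits in CC1 (193 to 252) and 243 in CC2 (213 to 276). Its levels of 14.5 and 16.4 HPM gave a mean of 15.4 ± 1.32 HPM (SD, n = 2), a difference of 1.13-fold against 1.88-fold for the median locus of its abundance class. In CC2 the intervals of RALFL34 and RALFL33 overlapped, whereas in CC1 they did not.

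RALFL8, RALFL23 and RALFL4 lay near the lower limit of what was listed. Each of them stood above fewer than 10% of the listed loci in both replicates. RALFL8 had 34.5 hits in CC1 (23.5 to 47.5) and 19.9 in CC2 (12.2 to 30.9), or 1.80 ± 0.65 HPM (SD, n = 2). RALFL23, which is cut from its precursor by the protease S1P and dampens immune signalling through FERONIA, had 20 hits in CC1 (12.2 to 30.9) and 23 in CC2 (14.6 to 34.5). Its mean was 1.43 ± 0.17 HPM (SD, n = 2). RALFL4 had 14 hits in CC1 (7.65 to 23.5) and 11 in CC2 (5.49 to 19.7), or 0.83 ± 0.13 HPM (SD, n = 2). In hits, the order of RALFL8 and RALFL23 differed between the replicates, and the counting intervals of all 3 genes overlapped in CC2.

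**Figure D1:**
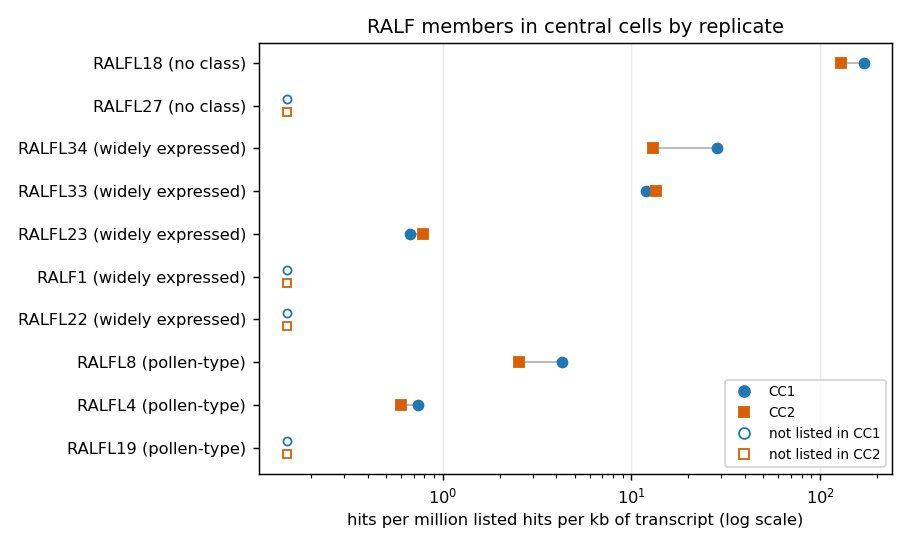
Level of each of the 10 RALF genes in hits per 1000000 listed hits per kb of transcript (log scale), with a filled circle for CC1 and a filled square for CC2. Open symbols at the left mark genes that a replicate does not list and have no value on the axis. RALFL18 lies at 170 and 129, above all other members, and 4 genes are listed in neither replicate.

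Per length of transcript, RALFL18 also had the highest level of the members. Relative to HPM, its ratio to RALFL34 and RALFL33 was larger on this scale and its ratio to RALFL8 was smaller, at 51.0 in CC1 and 65.0 in CC2 by HPM and at 39.8 and 50.7 per kb. RALFL18 had 149.7 ± 29.2 HPM per kb (SD, n = 2), RALFL34 had 20.8 ± 10.9 and RALFL33 had 12.8 ± 1.09. RALFL8 had 3.41 ± 1.23 HPM per kb, RALFL23 had 0.73 ± 0.09 and RALFL4 had 0.67 ± 0.10. RALFL18 was thus 5.98 times RALFL34 per kb in CC1 and 9.90 times in CC2. RALFL34 and RALFL33 changed places between the replicates, with a per-kb ratio of 2.38 in CC1 and 0.96 in CC2, and so did RALFL23 and RALFL4, with ratios of 0.90 and 1.32. These neighbours in the order did not differ beyond their spread. RALFL8 lay above RALFL4 in both replicates, 5.77-fold in CC1 and 4.26-fold in CC2. Lengths are those of the RefSeq annotation of TAIR10.1, whereas the authors counted hits on the gene models of TAIR10. Libraries primed on the poly(A) tail cover the 3′ end more than the rest. Values per kb therefore place long transcripts too low, and values in HPM are not corrected for length.

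The members known from pollen were lower in these cells than the sum of those known to be widely expressed. RALFL4, RALFL8 and RALFL19 were taken as pollen-type, and RALF1, RALFL22, RALFL23, RALFL33 and RALFL34 as widely expressed. RALFL18 and RALFL27 were put in no class, since no expression class for them was sure. The widely expressed genes together had 45.0 ± 13.3 HPM (SD, n = 2), with 54.5 HPM in CC1 and 35.6 in CC2. The pollen-type genes had 2.63 ± 0.77 HPM (SD, n = 2), with 3.18 HPM in CC1 and 2.08 in CC2. The log2 ratio of both sums was 4.10 in CC1 and 4.10 in CC2, and per kb of transcript it was 3.04 and 3.12. This difference was not tested, since an exact test over 2 replicates cannot reach the usual threshold and genes are not replicates.

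The sums of both classes rested on few genes. Of the widely expressed genes, RALFL34 and RALFL33 held nearly all hits, and RALF1 and RALFL22 were not listed. The mean of RALFL23, 1.43 HPM, lay between those of the pollen-type RALFL8 (1.80 HPM) and RALFL4 (0.83 HPM). Taking the median gene of each class in place of the sum, with unlisted genes as 0, lowered the mean log2 ratio to 0.79. The class given to RALFL18 decided the direction: with RALFL18 among the pollen-type genes the mean log2 ratio was -1.22. With RALFL18 and RALFL27 among the widely expressed genes it was 5.81.

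RALFL8 holds a stretch that its neighbour RALFL9 on chromosome 1 also holds, and the hits of both were fractional, so that the split between them is uncertain. RALFL8 (22714921 to 22715448) and RALFL9 (22717060 to 22717610) lie on the minus strand with 1611 bp between them, and their coding sequences are 83.1% identical. The longest stretch that both transcripts hold in common has 85 bases and falls inside both coding sequences. It is shown here because reads of 50 bases from within it fit both genes, and its place in RALFL8 on TAIR10.1 is chr1:22715156-22715240.
RALFL8 and RALFL9: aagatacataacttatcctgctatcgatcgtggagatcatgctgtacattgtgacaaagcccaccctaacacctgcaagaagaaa
Of the 479 windows of 50 bases in the RALFL8 transcript, 36 (7.52%) also occurred in RALFL9. The other 9 members had no such window anywhere else in the genome. RALFL9 had 89.5 hits in CC1 against 39.1 in CC2. With RALFL8 it made up 123.975 hits in CC1, which is not a whole number, and 59 in CC2. The sum of both genes was 6.05 ± 2.94 HPM (SD, n = 2), and with RALFL9 counted as pollen-type, an alternative chosen after seeing the data, the mean log2 ratio of the classes was 2.75. The transcript of RALFL8 also overlaps 70 bases of AT1G61565 and that of RALFL33 overlaps 295 bases of the non-coding RNA AT4G06335, both on the opposite strand. Neither of these loci was listed. The authors counted hits on the gene models of TAIR10, and whether these models hold both loci was not checked. The other 8 members overlap no annotated gene.

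A further 3 RALF genes were abundant, each with fewer hits than RALFL18 in CC1 and with more in CC2. Across the 34 genes of the family, 16 were listed in at least 1 replicate (47.1%, against 60.5% of all nuclear protein-coding loci) and 15 in both (44.1% against 47.2%). RALFL29 had 799 hits in CC1 and 2033 in CC2, or 94.6 ± 59.7 HPM (SD, n = 2). RALFL28 had 765 and 1404 hits, or 72.3 ± 31.4 HPM, and RALFL5 had 425 and 1408 hits, or 61.3 ± 47.3 HPM. Together with RALFL18 these genes held 75.9% of the hits of the family in CC1 and 85.5% in CC2. RALFL18 held the most hits in CC1 and RALFL29 in CC2. Per kb, RALFL18 was 0.94 times RALFL29 in CC1 and 0.27 times in CC2. The roles of RALFL5, RALFL28 and RALFL29 are not given in the sources used here. Within the last 50 codons RALFL5 had 5 cysteine codons, RALFL28 had 4 and RALFL29 had 3. In the whole coding sequence RALFL5 had 7, RALFL28 had 5 and RALFL29 had 5, so that the fixed stretch leaves some out. The last 150 coding bases of RALFL29, the gene with the most hits of the family in CC2, are shown for comparison with RALFL18.
RALFL29 (chr4:7037086-7037235, minus strand): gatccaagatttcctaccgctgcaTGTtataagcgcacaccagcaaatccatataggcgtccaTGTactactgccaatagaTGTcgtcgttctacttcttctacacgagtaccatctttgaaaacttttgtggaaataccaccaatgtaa

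**Figure D2:**
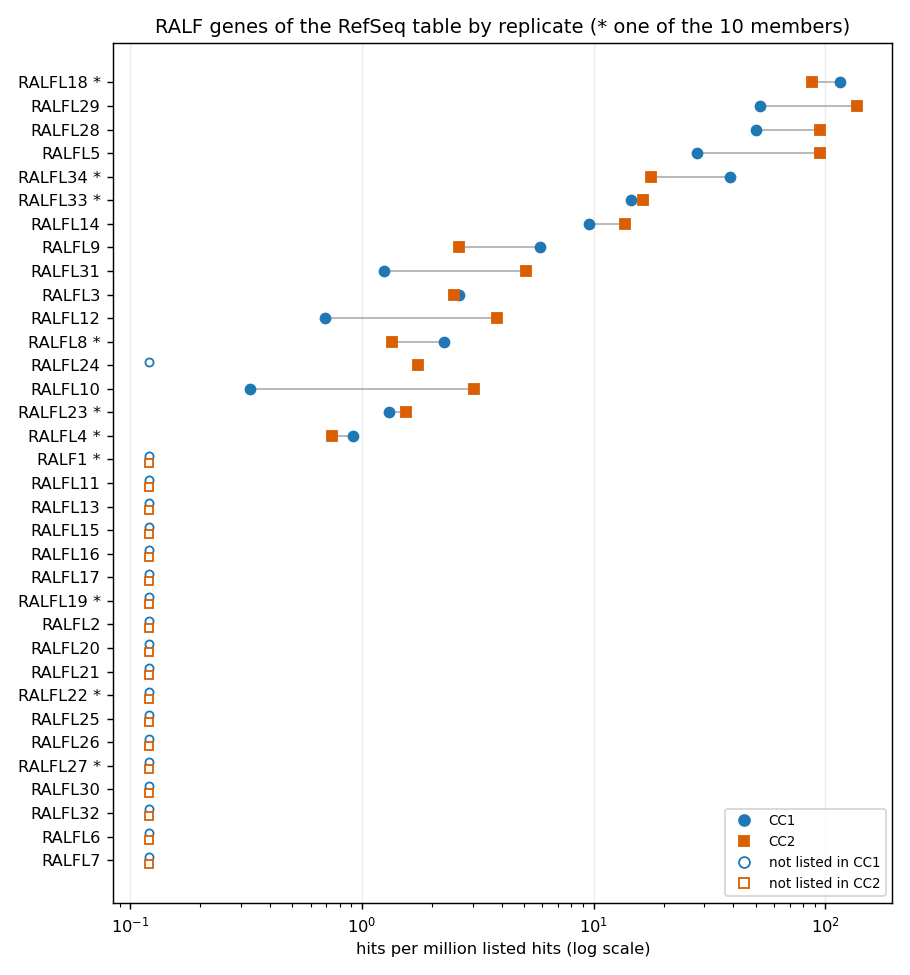
Level of the 34 RALF genes in hits per 1000000 listed hits (log scale), with circles for CC1 and squares for CC2, and a star beside the 10 members. Open symbols at the left mark genes not listed in that replicate. RALFL18, RALFL29, RALFL28 and RALFL5 lead, and 18 genes are listed in neither replicate.

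Lower in the family, RALFL14 had 146 hits in CC1 against 202 in CC2 (11.6 ± 2.86 HPM, SD, n = 2), and RALFL3 had 40 and 37 hits (2.56 ± 0.09 HPM). RALFL31 had 19 hits in CC1 and 76 in CC2, RALFL12 had 10.6 and 57, and RALFL10 had 5 and 45. RALFL24 was listed in CC2 only, with 26 hits. The other 14 genes beside the 10 members were listed in neither replicate.

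The sum of the members was higher in CC1 and that of the other RALF genes in CC2. Summed over the 10 members, CC1 had 173 HPM and CC2 had 125 HPM, which is -0.47 as a log2 ratio (CC2 over CC1). The other 24 RALF genes had 151 HPM in CC1 and 359 HPM in CC2, a log2 ratio of 1.25. Of the 9 of them listed in both replicates, 5 were more than 2-fold higher in CC2, where 14.7% of all loci listed in both were, and 1 (RALFL9) was more than 2-fold higher in CC1. Of the 5, RALFL10, RALFL12 and RALFL31 lay in the lowest abundance class, where 691 of 2686 loci were more than 2-fold higher in CC2. RALFL5 lay in class 4 of 5 (194 of 2685 loci) and RALFL29 in the highest class (63 of 2685). The log2 ratio was 1.77 for RALFL5, 1.39 for RALFL29 and 0.91 for RALFL28. Among the members it was -1.13 for RALFL34, -0.75 for RALFL8, -0.40 for RALFL18, -0.31 for RALFL4, 0.24 for RALFL23 and 0.18 for RALFL33. The median was -0.36 over the 6 listed members and -0.07 over all 13426 loci listed in both.

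The cell type markers also differed between the replicates. All 7 central cell markers (FWA, FIS2, MEA, AGL61, AGL80, DME and CKI1) were listed in both, with 1613 HPM in all in CC1 and 1349 in CC2. The 5 egg cell genes of the EC1 family were likewise listed, with 1355 HPM in CC1 and 902 in CC2. EC1.1 alone had 842 HPM in CC1 and 606 in CC2, above the highest central cell marker, FWA (453 and 308). Of the 4 synergid markers, the LURE1 peptide genes LURE1.1, LURE1.2 and LURE1.3 were listed, with 142 HPM in CC1 and 645 in CC2, and their regulator MYB98 was not. The hits of the LURE1 genes were fractional, so that part of them had been shared out between loci. Of the 7 pollen and sperm markers, 4 were listed in CC1 (9.15 HPM in all) and 2 in CC2 (4.64 HPM), with MGH3 and HAP2 in CC1 only. VGD1 had 3.84 HPM in CC1 and 3.70 in CC2, and LAT52-like had 2.43 and 0.94. GEX2, ANX1 and ANX2 were not listed. Of all nuclear protein-coding loci, 60.5% were listed in at least 1 replicate and 47.2% in both. Of the 4 markers of the ovule tissue, BAN had 4.72 HPM in CC1 and 1.14 in CC2, STK was listed in CC2 only with 11.6 HPM, and INO and ANT were not listed. The paper found some genes known as enriched in egg or synergid cells to be enriched in its central cell data too. It considers cross-contamination unlikely. The part of neighbouring cells in the values of the RALF genes was not tested here.

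**Figure D3:**
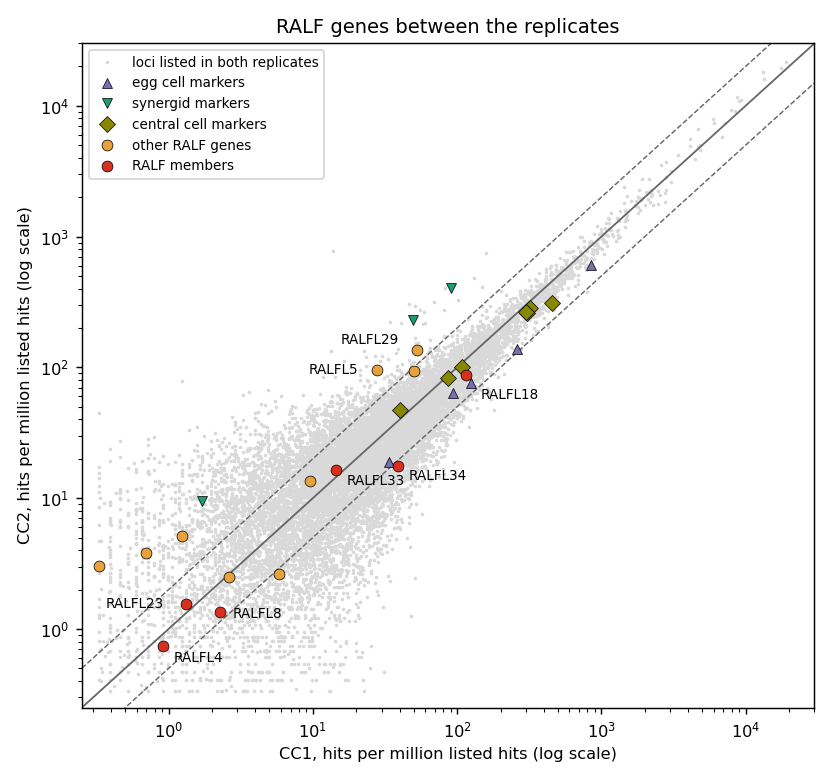
Hits per 1000000 listed hits in CC1 (x axis) and CC2 (y axis), both on log scales, for all 13426 loci listed in both replicates (grey), the RALF genes and the marker genes. The solid line marks equal values and the dashed lines a 2-fold difference. RALFL34 is the one member outside the dashed lines, on the side of CC1, and RALFL5 and RALFL29 lie outside them on the side of CC2, as do the 3 synergid markers.

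The genes whose products receive the RALF signal were in part listed in 1 replicate only. Of 17 receptor kinases of the CrRLK1L family, 9 were listed in at least 1 replicate, 3 in both and 6 in 1 only. Of all nuclear protein-coding loci, 60.5% were listed in at least 1 replicate, 47.2% in both and 13.3% in 1 only. FERONIA (FER), the receptor of RALF1, RALFL23 and RALFL33, had 148 hits in CC1 and was not listed in CC2, and ANJEA (ANJ), which acts beside it in the synergids, had 161 hits in CC1 only. HERK1 had 52 hits and BUPS1 had 13 hits in CC2 only. BUPS2, ANX1 and ANX2, the receptors of RALFL4 and RALFL19 in the pollen tube, were not listed in either replicate. THE1, the receptor of RALFL34 in roots, was also not listed. The receptor genes with the most hits were MDS4 with 128 ± 0.23 HPM (SD, n = 2), MDS3 with 31.8 ± 2.58 and AT2G23200 with 14.4 ± 1.11. The hits of MDS3 and MDS4 were fractional, so that part of them had been shared out between loci. Of the co-receptors, LORELEI (LRE) had 8 hits in CC1 and 13 in CC2. LLG1 had 197 hits in CC2 only, LLG2 had 178 in CC1 only, and LLG3 had 12 in CC2 only. Of the 14 pathway genes with at least 100 hits in CC1, 4 were not listed in CC2, against 2.39% of all such loci. Of the 15 with at least 100 hits in CC2, 2 were not listed in CC1, against 5.16% of all such loci. The 4 genes missing from CC2 had only 147 to 178 hits in CC1. The shares over all such loci include far more abundant ones and are not matched for abundance.

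**Figure D4:**
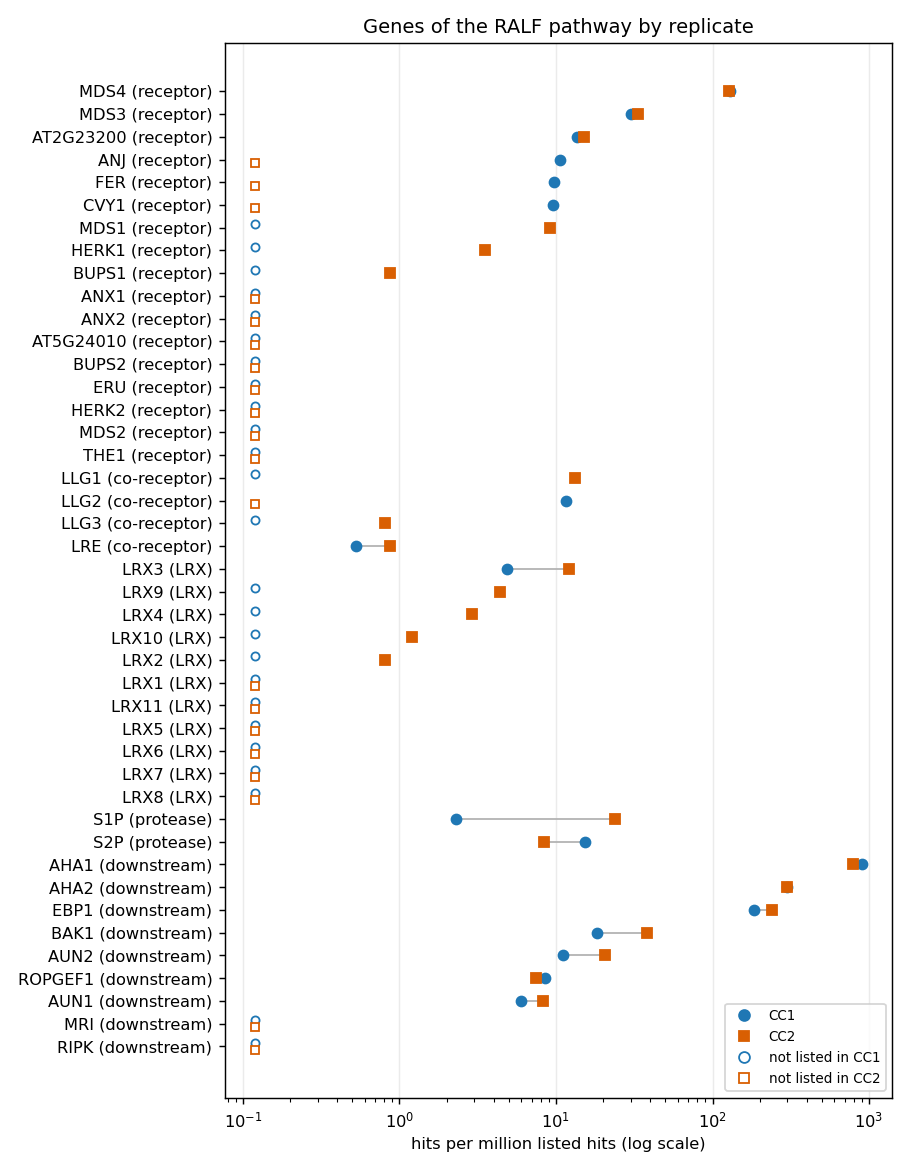
Level of 43 genes of the RALF pathway in hits per 1000000 listed hits (log scale), with circles for CC1 and squares for CC2. Open symbols at the left mark genes not listed in that replicate. The proton pump genes AHA1 and AHA2 lead at up to 903 hits per 1000000, while most receptor and LRX genes are missing from 1 or both replicates.

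Of the 11 LRX genes, whose products bind RALF peptides in the cell wall, 5 were listed in at least 1 replicate, against 60.5% of all nuclear protein-coding loci, and LRX3 alone in both, against 47.2%. LRX3 had 74 hits in CC1 and 181 in CC2 (8.52 ± 5.18 HPM, SD, n = 2). LRX9 had 65 hits, LRX4 had 43 and LRX10 had 18, in CC2 only. LRX9 and LRX10 belong to the pollen group with LRX8 and LRX11, which were not listed. The protease gene S1P, whose product cuts the RALFL23 precursor, had 35 hits in CC1 and 353 in CC2 (13.0 ± 15.2 HPM), a 10.4-fold difference. The gene of the partner protease S2P had 233 and 125 hits (11.8 ± 4.85 HPM). Further downstream, 7 of 9 genes were listed in both replicates, against 47.2% of all nuclear protein-coding loci. The plasma membrane proton pumps, which FERONIA signalling inhibits when RALF1 binds, were abundant, with 847 ± 79.2 HPM (SD, n = 2) for AHA1 and 298 ± 0.61 for AHA2. The hits of both pump genes were fractional too. EBP1, a growth regulator that acts under FERONIA, had 213 ± 39.6 HPM. The kinase genes RIPK and MRI were not listed.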

How the data were processed

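RNA of laser-dissected central cells was sequenced in 1 group of 2 biological replicates. The authors' error-corrected SOLiD reads of 50 bp were mapped by them to TAIR10 in TopHat 1.2, with at most 10 places kept for each read and weighted by the unique reads nearby. What they deposited per locus is an expected count (an estimated number of hits), unstranded and not scaled by depth or length. Loci under 5 hits or with none in the last 250 bp were left out, and ambiguous hits were divided between loci.

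Hits were divided by the listed hits of each replicate and multiplied by 1000000 (HPM), and means and SDs are over both replicates. With 1 condition there was no group comparison and no p-value, and the spread may be technical. The paper reports that the cDNA of CC1 was slightly shorter and lower in yield than that of CC2. It also found fungal sequences in CC1 only, and considers an effect on the alignments unlikely. Intervals of 95% are exact Poisson intervals of the rounded hits. Positions, lengths, sequences and RALF names came from RefSeq TAIR10.1, where RALFL23 is named RALF23. Classes came from general knowledge, and members, lists and classes were chosen with earlier results of these data known. Named are all members, every other listed RALF gene and, of each pathway list, the 3 genes with the most HPM and genes whose products bind a member. BAK1, AUN1, AUN2 and ROPGEF1 are not described. Windows of 50 bases were searched on both strands of the genome. Alternatives were hit minimums of 10 and 20, other totals, TMM (edgeR 4.0.16) and median-of-ratios (DESeq2 1.42.0) scaling, values per kb, other classes and leaving out each replicate. The steps were tested on simulated data. Python 3.11.15, numpy 2.4.6, pandas 2.3.3, scipy 1.17.1, Biopython 1.88, matplotlib 3.10.9 and R 4.3.3 were used.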

Additional observations from a re-analysis of the deposited data

How the results depend on the processing

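The total without organelle loci and the TMM and median-of-ratios scalings moved the mean levels of the listed members by less than their SD. The TMM factors, 1.02 for CC1 and 0.976 for CC2, nearly cancel in a mean over both replicates, so that little change was possible. Of 105 alternative values, 89 stayed within their limit, 15 moved and 1 reversed. With 2 replicates, leaving 1 out always shifts a mean by less than its SD. These alternatives therefore could not show whether a level is stable. Per kb of transcript, which is another unit, the summed level of the members was 188 HPM per kb, against 149 HPM. The summed level ran from 125 to 173 HPM when 1 replicate was left out, and the number of listed members stayed at 6. With a minimum of 20 hits, 5 members were listed in at least 1 replicate and 4 in both. The log2 ratio of the widely expressed to the pollen-type genes, 4.10, was 5.81 with RALFL18 and RALFL27 among the former, -1.22 with RALFL18 among the latter, 5.74 with RALFL4 and RALFL19 alone as pollen-type, 0.79 for class medians, 3.08 per kb and, in an alternative added after seeing the data, 2.75 with RALFL9. With a minimum of 20 hits, 2 in place of 4 LORELEI family genes and 3 in place of 5 LRX genes were listed in at least 1 replicate. No LORELEI family gene (0 in place of 1) was listed in both with a minimum of 10 or 20. The shares of all loci that reach a minimum of 10 or 20 hits were not worked out. The counts of members and pathway genes at these minimums therefore have no background beside them. With 3 RALF genes found by their product description added after seeing the data, 18 of 37 were listed in at least 1 replicate. The share over all nuclear protein-coding loci was 60.5%. No paired analysis was possible because the data hold 1 group. Genes near 5 hits are limited by depth.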

Other observations

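In a row of RALF genes on chromosome 2, only alternate genes were listed. RALFL10, RALFL11, RALFL12 and RALFL13 lie within 5912 bp (8246160 to 8252071). RALFL10 had 5 hits in CC1 against 45 in CC2, and RALFL12 had 10.6 against 57, while RALFL11 and RALFL13 were listed in neither replicate. The coding sequences of RALFL11 and RALFL13 are 96.3% identical and those of RALFL11 and RALFL12 95.4%. In the RALFL12 transcript, 54 of 283 windows of 50 bases (19.1%) occurred more than once in the genome, and none of the 302 windows of RALFL10 did. In the unlisted RALFL11, 83 of 407 windows (20.4%) did so, and in the unlisted RALFL13, 39 of 411 (9.49%). The 54 windows of RALFL12 also occurred in RALFL11, and the hits of RALFL12 in CC1 were fractional. The split of hits between the similar genes of this row is therefore uncertain.

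Outside the named RALF genes, AT1G60913 and AT2G32885 carry the product description of the family. AT1G60913 had 17 hits in CC1 and 11 in CC2. AT2G32885 had 25 and 6, and its transcript overlaps 763 bases of RALFL17 on the opposite strand.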
